A study of Mus musculus with 27 samples.

Results

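Isl1, Zfp521, Ebf1, Eya1, Slc35d3, Tcfl5 and Rasgrf2 are 7 genes that mark dopamine D1 receptor neurons of the striatum in these data. They were chosen by symbol with earlier results of the same arrays known, and each was read from whichever of its probe sets had the highest mean over all 27 arrays. They are 7 of 18193 genes with a named probe set, and all 7 were among the 12017 genes tested, which had to exceed 6 on the log2 scale, the floor used here for background, in at least 3 arrays. Ebf1 met that limit through D1 arrays alone, since all 14 D2 arrays read under 6, and Tcfl5 met it through the 13 D1 arrays and 3 D2 arrays.

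The measured RNA was bound to ribosomes that carried the tag L10a-GFP in neurons expressing the dopamine receptor Drd1 or Drd2 (translating ribosome affinity purification, TRAP). All mice were males aged 2 to 5 months on a background mixed from C57BL/6 and 129/Sv, and all of them carried G9a fl/fl, the floxed gene of the histone H3 lysine 9 methyltransferase G9a (Ehmt2). D2 mutants (7 arrays, 4 after cocaine and 3 after saline) had the genotype entry Drd-TRAP with Drd2-Cre, and D2 controls (7 arrays, 4 and 3) had Drd2-TRAP without Cre. D1 mutants (7 arrays, 4 and 3) had Drd1-TRAP with Drd1-Cre, and D1 controls (6 arrays, 4 and 2) had Drd1-TRAP without Cre. Mice were killed 2 h after the last of 8 injections of saline or of cocaine at 20 mg/kg/day. Cre and loss of G9a came together, so their effects cannot be told apart, and the receptor promoters drive tag and Cre in every cell that uses them, cholinergic interneurons of the striatum among those that use Drd2.

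The striatum sends its output through a pair of projection neuron types, which are born from the same embryonic zone and are told apart by their dopamine receptor. Isl1, a LIM homeodomain factor, and Ebf1, a helix-loop-helix factor, are needed for the differentiation of D1 neurons and their axon pathway in mice, and Zfp521, a zinc finger factor, can bind EBF proteins and block their activity. G9a places a repressive methyl mark on histone H3 and is known to keep genes of other lineages silent.

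The other members have different roles. Eya1 is a protein phosphatase and coactivator of homeodomain factors of the sine oculis family. Slc35d3 resembles nucleotide sugar transporters and is required in mice for D1 receptor trafficking out of the endoplasmic reticulum. Tcfl5 is a helix-loop-helix factor best known from the testis, and Rasgrf2 is a calcium-responsive exchange factor that activates Ras and Rac.

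By the GRCm38.p6 annotation Isl1 lies at chr13:116298270-116309688, Ebf1 at chr11:44618100-45008096, Eya1 at chr1:14168953-14311035, Slc35d3 at chr10:19847917-19856634, Tcfl5 at chr2:180621956-180642691 and Rasgrf2 at chr13:91880407-92131828. All 7 members are protein-coding genes. The RefSeq promoter table for GRCm38.p6 held 6 promoters of 5 members, each running from 250 bases before to 50 bases after a start site. Isl1 and Slc35d3, which were both higher in D2 mutants, are printed with Rasgrf2, which was not, because all 3 are rich in CpG dinucleotides, which are in capitals. Isl1 has 37 CpG in chr13:116309639-116309938 (minus strand), Slc35d3 has 27 in chr10:19851410-19851709 (minus strand), and Rasgrf2 has 28 in chr13:92131779-92132078 (minus strand), against a median of 7 over 32851 promoters of this length. The Slc35d3 window surrounds a start site inside the gene's span given above, not the one at its outer end, which was not read.
Isl1: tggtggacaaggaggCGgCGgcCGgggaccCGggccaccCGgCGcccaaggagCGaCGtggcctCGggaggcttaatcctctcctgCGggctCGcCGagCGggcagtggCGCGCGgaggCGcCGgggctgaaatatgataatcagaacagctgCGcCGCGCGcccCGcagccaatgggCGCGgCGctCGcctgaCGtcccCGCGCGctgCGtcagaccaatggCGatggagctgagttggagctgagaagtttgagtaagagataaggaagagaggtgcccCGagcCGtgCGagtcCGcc
Slc35d3: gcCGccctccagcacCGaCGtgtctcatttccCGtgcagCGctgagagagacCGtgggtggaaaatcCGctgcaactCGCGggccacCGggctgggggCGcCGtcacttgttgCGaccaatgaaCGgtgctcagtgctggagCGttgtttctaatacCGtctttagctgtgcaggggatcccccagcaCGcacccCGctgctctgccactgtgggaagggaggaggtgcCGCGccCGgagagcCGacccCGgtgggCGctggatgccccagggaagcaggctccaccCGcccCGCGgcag
Rasgrf2: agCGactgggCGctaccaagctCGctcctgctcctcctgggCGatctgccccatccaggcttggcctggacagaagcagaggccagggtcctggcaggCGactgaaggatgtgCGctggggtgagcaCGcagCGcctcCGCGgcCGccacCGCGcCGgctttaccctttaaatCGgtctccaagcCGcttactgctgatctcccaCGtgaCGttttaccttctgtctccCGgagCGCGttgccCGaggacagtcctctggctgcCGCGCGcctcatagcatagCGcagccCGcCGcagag

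The share of all promoters with fewer CpG put Isl1 at percentile 94.4, Tcfl5 (35 CpG) at 93.0, Rasgrf2 at 85.8 and Slc35d3 at 84.5. The pair of Ebf1 promoters, with 9 and 17 CpG, stood at percentiles 54.2 and 68.6. Among the promoters read, CpG-rich ones were therefore found both in members that were higher in D2 mutants and in members that were not. On both strands, none of the 6 promoters held the homeodomain core TAATTA, present in 5.29% of all promoters, or the cyclic AMP response element TGACGTCA, present in 1.79%. The EBF core CCCNNGGG occurred once in Slc35d3 and in none of the other promoters read, against 13.7% of all promoters. The shorter element TGACG, which is part of the response element, occurred at 2 places in Isl1 and at 1 place in Slc35d3, in Rasgrf2 and in 1 Ebf1 promoter, against 20.8% of all promoters with at least 1. These matches describe letters in a window.

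Between 61.3% and 63.7% of genes exceeded the floor on each array, and the weakest correlation between an array and any other in its group was 0.971 to 0.993. Ehmt2 was lower in mutants of both types, from 8.68 to 9.38 log2 in D2 mutants against 10.67 to 11.01 in D2 controls, and from 8.03 to 9.37 in D1 mutants against 9.95 to 10.74 in D1 controls. Drd2 read 12.28 to 13.60 log2 in D2 arrays and 6.33 to 7.10 in D1 arrays, and Drd1 read 9.71 to 10.65 in D2 arrays and 12.12 to 12.85 in D1 arrays, as the labels have it. D1 control cocaine replicates 3 and 4 had the lowest correlation, 0.971, with each other, and replicate 3 lay below the other D1 arrays for Isl1, Ebf1, Eya1 and Slc35d3. The D2 mutant cocaine array numbered 4 is a control by its source name and a mutant by its title, genotype and description. It is kept as a mutant, and without it the same 3 members remained called in D2 mutants against D2 controls.

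All 7 genes read lower in D2 controls than in D1 controls, and the members were chosen with that difference known, so it is given as a description with no test. The difference, D2 minus D1 on the log2 scale, was -6.49 for Eya1, -3.60 for Slc35d3, -3.58 for Isl1, -3.44 for Tcfl5, -2.87 for Ebf1, -2.72 for Rasgrf2 and -2.61 for Zfp521. Its size and the order of the genes depend on the probe set. Eya1 1421727_at averaged 5.44 log2 in D2 controls against 7.72 in D1 controls, and Rasgrf2 1440918_at 5.83 against 6.65, both smaller gaps. Ebf1 1448293_at had a larger one, 3.82 against 8.61. Every D2 control array lay below every D1 control array for 7 of 7 members, against 4.43% of all tested genes. For Ebf1 and Tcfl5 the D2 level was at background, which limits the size of the difference. Across all 27 arrays the genes whose pattern was closest to the members' by Pearson correlation were mostly the same few D1-high genes. Drd1 was among the 3 closest genes for Isl1 (0.987), Slc35d3 (0.995), Zfp521 (0.971) and Ebf1 (0.973), and the mitochondrial transporter Sfxn1 was closest for Eya1 (0.994), Rasgrf2 (0.979) and Ebf1 (0.977). Tcfl5 stood closest to the stress peptide gene Crh (0.944). These values rest mainly on the gap between D1 and D2 arrays, which all of these genes share.

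**Figure D1:**
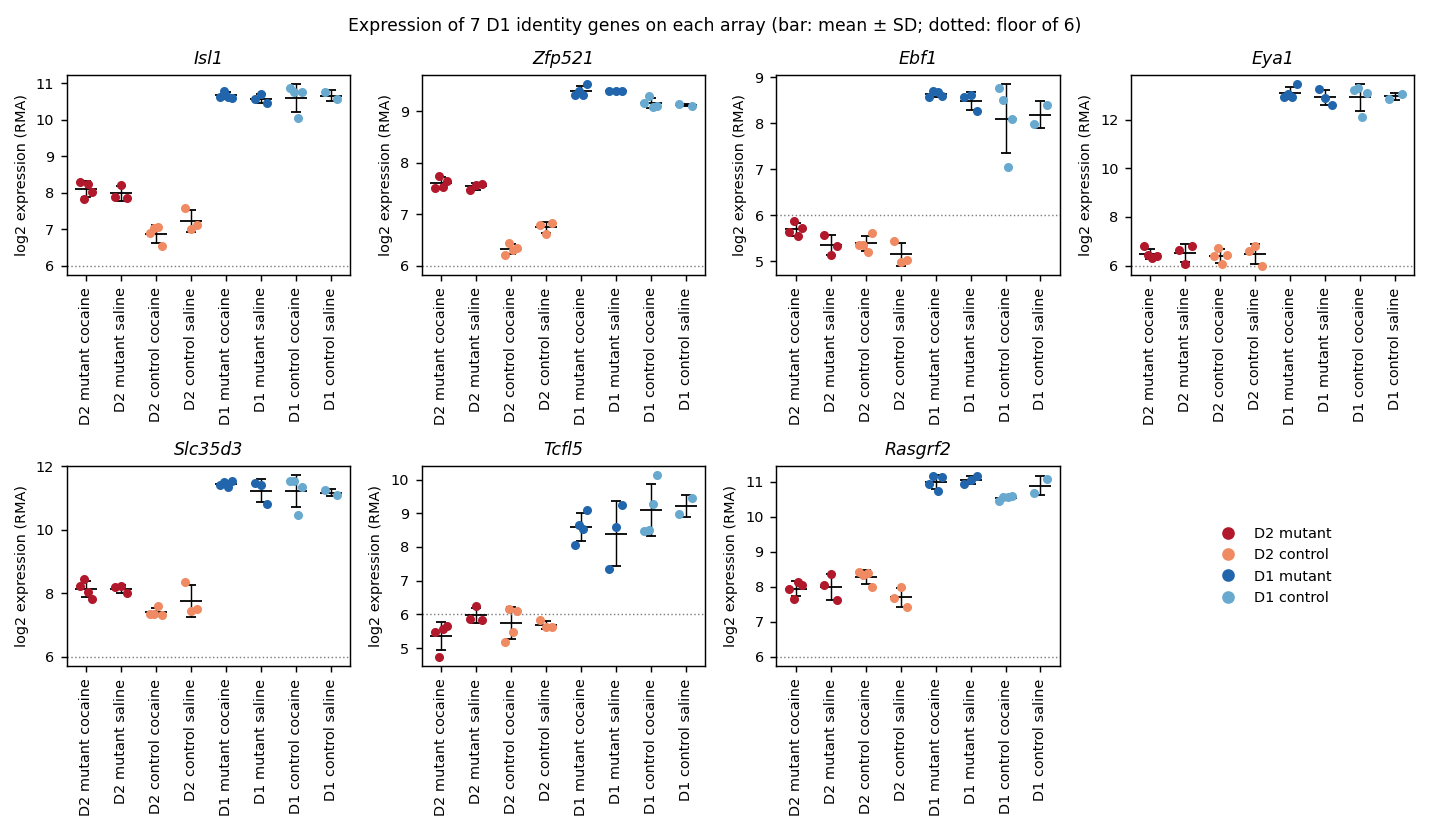
Log2 expression (RMA, vertical axis) of the 7 genes on each of the 27 arrays in 8 groups (horizontal axis), with the group mean and SD as bars and the floor of 6 as a dotted line. All D2 arrays lie below all D1 arrays for each gene, and D2 mutants lie above D2 controls without overlap for Isl1 and Zfp521.

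The comparison of D2 mutants with D2 controls asked whether genes of the opposite neuron type are released when G9a is lost in D2 neurons. Isl1, Zfp521 and Slc35d3 rose in D2 mutants, by 1.98-fold, 2.06-fold and 1.47-fold, and Ebf1, Eya1, Tcfl5 and Rasgrf2 did not pass the test. The 3 of 7 members that rose (adjusted p under 0.05 in limma over all tested genes) stand against 8.41% of all genes that rose and 12.2% that passed in either direction.

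Isl1 read 8.29, 7.82, 8.24 and 8.03 log2 in D2 mutants after cocaine, against 6.90, 7.03, 7.05 and 6.52 in D2 controls after cocaine. After saline it read 7.87, 8.21 and 7.86 in D2 mutants, against 7.58, 6.99 and 7.12 in D2 controls. All 7 mutant arrays lay above all 7 control arrays. The nearest were the mutant at 7.82 and D2 control saline replicate 1 at 7.58. With the drugs weighted equally the difference was 0.98 (SE 0.12, 95% interval 0.74 to 1.23, adjusted p = 1.71e-06).

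Zfp521 had the tightest groups. It read 7.51, 7.75, 7.53 and 7.65 log2 in D2 mutants after cocaine, against 6.20, 6.45, 6.30 and 6.34 in D2 controls after cocaine. After saline it read 7.46, 7.58 and 7.58 in D2 mutants, against 6.79, 6.62 and 6.82 in D2 controls. The groups did not overlap, and the difference of 1.04 (SE 0.06, 95% interval 0.92 to 1.16, adjusted p = 7.65e-13) is large against the spread within either group. Isl1 and Zfp521 were the 2 of 7 members with every D2 mutant array above every D2 control array, against 3.58% of all tested genes.

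Slc35d3 read 8.21, 8.46, 8.04 and 7.83 log2 in D2 mutants after cocaine, against 7.34, 7.36, 7.59 and 7.32 in D2 controls after cocaine. After saline it read 8.19, 8.23 and 8.004 in D2 mutants, against 8.35, 7.43 and 7.50 in D2 controls. The groups overlap through 1 array, D2 control saline replicate 1, which stood above every other D2 control and above all D2 mutants except the one at 8.46. That array was also the highest D2 control for Isl1, for Drd1 (10.50) and for the cholinergic interneuron genes Lhx8 (8.72) and Slc18a3 (6.404). With the Slc18a3 level as a covariate Slc35d3 missed the threshold, as given with the cholinergic genes. The difference was 0.56 (SE 0.15, 95% interval 0.24 to 0.88, adjusted p = 0.0174). Leaving out replicate 2 of the D2 control saline arrays gave 0.48 (adjusted p = 0.0626), leaving out replicate 3 gave 0.49 (adjusted p = 0.0579), and leaving out replicate 1 gave 0.70 (adjusted p = 0.00208).

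Ebf1 read 5.14 to 5.87 log2 in D2 mutants, with a median of 5.57, against 4.99 to 5.61 in D2 controls, with a median of 5.36. These are levels under the floor that overlap, and the difference was 0.25 (95% interval -0.09 to 0.60, adjusted p = 0.361). Eya1 read 6.08 to 6.80 in D2 mutants, with a median of 6.44, against 6.001 to 6.79 in D2 controls, with a median of 6.45. Its groups covered nearly the same range, and the interval of the difference was -0.30 to 0.41 (adjusted p = 0.869).

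Tcfl5 read 4.74 to 6.24 log2 in D2 mutants, with a median of 5.65, against 5.19 to 6.16 in D2 controls, with a median of 5.64. Its interval, -0.59 to 0.49 (adjusted p = 0.938), is the widest of the 7, and 11 of its 14 D2 readings were under the floor. Rasgrf2 read 7.61 to 8.35 in D2 mutants, with a median of 8.05, against 7.43 to 8.41 in D2 controls, with a median of 7.9999. It lay well above the floor in every array, its groups overlapped over nearly their whole range, and its interval was -0.24 to 0.22 (adjusted p = 0.955). A missed threshold does not show that these 4 genes were the same in both genotypes. Rasgrf2, however, has an upper bound of 0.22 where Isl1 and Zfp521 have lower bounds of 0.74 and 0.92.

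**Figure D2:**
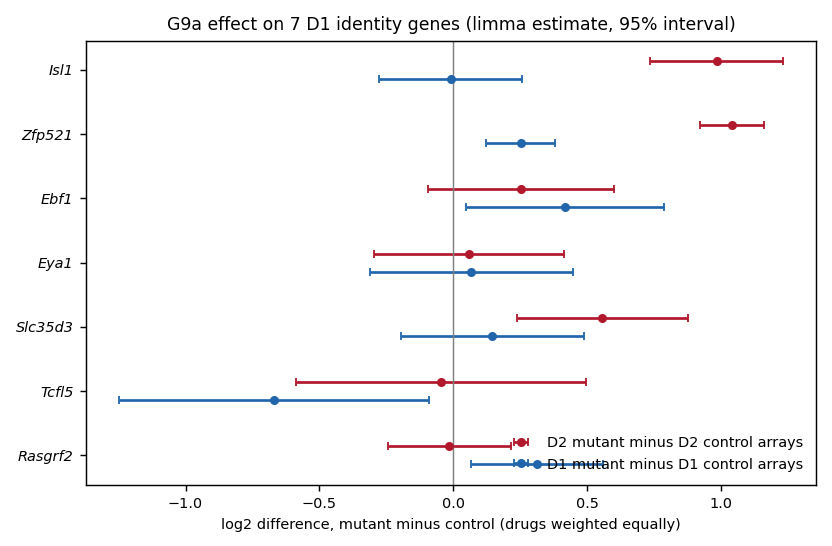
Log2 difference between mutants and controls (horizontal axis, drugs weighted equally) for the 7 genes (vertical axis) in D2 arrays and in D1 arrays, as limma estimates with 95% intervals. In D2 arrays the intervals of Isl1, Zfp521 and Slc35d3 lie above 0, and in D1 arrays those of Zfp521, Ebf1 and Rasgrf2 lie above 0 and that of Tcfl5 below 0. Of these 4 only Zfp521, at 0.25, passed after adjustment over all genes.

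Other probe sets gave a check for the 5 members that have more than 1, with 17 probe sets in all. The second probe set of Isl1 also rose, with 7.26 to 7.80 log2 in D2 mutants against 6.63 to 7.46 in D2 controls, and its difference was 0.52 (SE 0.09, adjusted p = 0.000283), a smaller rise than on the brighter probe set. The second probe set of Zfp521 did not pass (0.13, adjusted p = 0.381). It read 5.44 to 5.97 in D2 mutants and 5.33 to 5.79 in D2 controls, all under the floor, and 6.13 to 6.69 in D1 arrays, so even its D1 readings were close to the floor.

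Ebf1 differed by probe set. Probe sets 1448293_at and 1416301_a_at rose, by 0.67 (SE 0.15, adjusted p = 0.00345) and 0.58 (SE 0.16, adjusted p = 0.0190), while 1439789_at, 1416302_at and 1457441_at did not pass. The first of these read 3.92 to 4.86 log2 in D2 mutants against 3.60 to 4.32 in D2 controls, and 7.93 to 9.08 in D1 arrays. All D2 readings of Ebf1 by any probe set were under the floor, so the 2 calls concern levels near background. The other probe sets of Eya1 and Rasgrf2 did not pass either. Slc35d3 and Tcfl5 have a single probe set each, and their values have no such check.

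**Figure D3:**
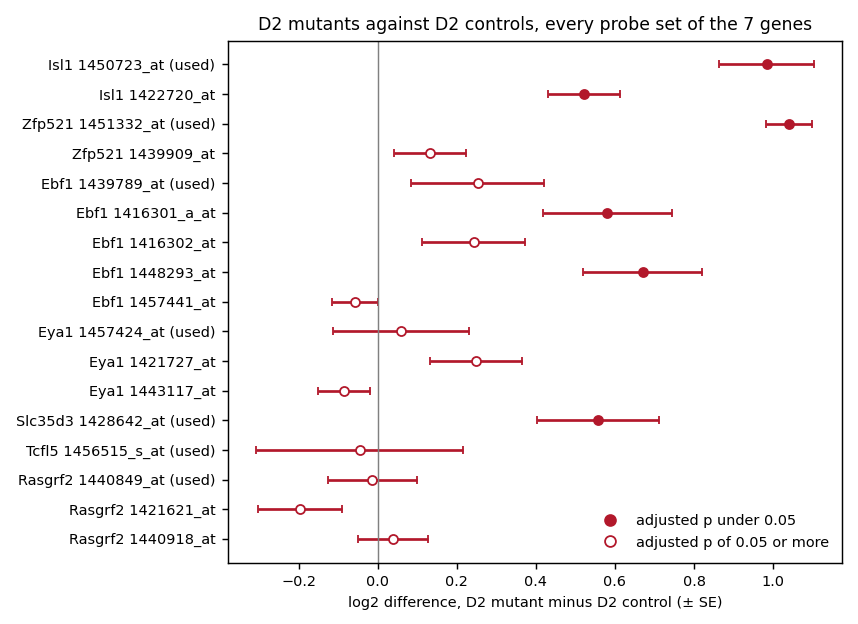
Log2 difference of D2 mutants minus D2 controls with its SE (horizontal axis) for each of the 17 probe sets of the 7 genes (vertical axis), filled where the adjusted p was under 0.05. Both Isl1 probe sets lie at 0.52 and 0.98, and the Ebf1 probe sets spread between -0.06 and 0.67.

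D2 mutants stayed on the D2 side for every member. Set against D1 controls, all 7 were lower in D2 mutants on the probe sets used. The log2 differences were -6.44 for Eya1, -3.49 for Tcfl5, -3.05 for Slc35d3, -2.73 for Rasgrf2, -2.62 for Ebf1, -2.60 for Isl1 and -1.57 for Zfp521. The values of Ebf1 and Tcfl5 are limited by D2 readings at background. No test is given, since the members were chosen with the gap between the neuron types known. The contrast called 7 of 7 lower, against 14.5% of all genes, and every D2 mutant array lay below every D1 control array for 7 of 7, against 5.43%, and below every D1 mutant array for 7 of 7, against 6.05%. The choice of members set these counts, and nothing is read from them.

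On the log2 scale Zfp521 in D2 mutants stood 39.9% of the way from D2 controls to D1 controls, with single arrays between 35.6% and 46.7%. Isl1 stood at 27.5%, with arrays between 21.3% and 34.4%, and Slc35d3 at 15.5%, with arrays between 6.95% and 24.2%. For these 3 genes every D2 mutant array lay on the D1 side of the D2 control mean. The share was 8.81% for Ebf1, 0.908% for Eya1, -0.51% for Rasgrf2 and -1.34% for Tcfl5, and the arrays of each of these genes fell on both sides of 0. These shares depend on the probe set. The second Isl1 probe set averaged 7.46 log2 in D2 mutants, 6.91 in D2 controls and 9.67 in D1 controls, a smaller share. For the second Zfp521 probe set, near the floor, the means were 5.64, 5.50 and 6.39, also a smaller share. Shares on other probe sets of the remaining members are not given. As a linear level, Isl1 in D2 mutants was 16.5% of its D1 control level, against 8.34% in D2 controls. Zfp521 was 33.7% of its D1 control level in D2 mutants, against 16.4% in D2 controls, and Slc35d3 was 12.1% against 8.22%. Background in the low group raises such percentages. In bulk RNA of this kind, fewer neurons of a type and less RNA per neuron cannot be told apart, and neither can a small rise in all D2 neurons and a large one in few.

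In D1 neurons, where the members are already high, mutants were set against controls in the same way. Zfp521 was higher in D1 mutants, and the other 6 did not pass, so 1 of 7 rose against 3.1% of all genes (4.22% in either direction). Zfp521 read 9.33, 9.40, 9.33 and 9.54 log2 in D1 mutants after cocaine, against 9.17, 9.29, 9.08 and 9.12 in D1 controls after cocaine. After saline it read 9.39, 9.40 and 9.39 in D1 mutants, against 9.14 and 9.11 in D1 controls. Every D1 mutant array lay above every D1 control array, as for 1.8% of genes, but the nearest arrays, a mutant at 9.33 and a control at 9.29, almost touched. The difference was 0.25 (SE 0.06, 95% interval 0.12 to 0.38, adjusted p = 0.0155). With 1 of the 2 D1 control saline arrays left out it missed the threshold, at 0.26 without replicate 1 (adjusted p = 0.0676) and 0.24 without replicate 2 (adjusted p = 0.0872).

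Isl1 read 10.46 to 10.80 log2 in D1 mutants and 10.04 to 10.87 in D1 controls, a difference of -0.01 (95% interval -0.28 to 0.26). The groups coincide, apart from the low D1 control cocaine replicate 3. Slc35d3 read 10.80 to 11.52 in D1 mutants and 10.46 to 11.53 in D1 controls (0.15, adjusted p = 0.799), and Eya1 read 12.61 to 13.46 and 12.09 to 13.31 (0.07, adjusted p = 0.931). For both, the control range was the wider one through that same array.

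Ebf1 read 8.27 to 8.70 log2 in D1 mutants and 7.05 to 8.77 in D1 controls (0.42, adjusted p = 0.281), and without D1 control cocaine replicate 3 its difference was 0.24 (adjusted p = 0.348). Rasgrf2 read 10.72 to 11.16 in D1 mutants and 10.43 to 11.07 in D1 controls (0.31, adjusted p = 0.198). Tcfl5 read 7.35 to 9.24 in D1 mutants and 8.48 to 10.14 in D1 controls, with overlapping ranges (-0.67, adjusted p = 0.263). The unadjusted p-values of Ebf1, Tcfl5 and Rasgrf2 were 0.0291, 0.0251 and 0.0152, and none held after adjustment over all genes.

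The G9a effect itself, taken on the log2 scale, differed between the neuron types for 2 of 7 members, against 0.99% of all genes. The D2 effect exceeded the D1 effect by 0.99 for Isl1 (SE 0.18, adjusted p = 0.00287) and by 0.79 for Zfp521 (SE 0.09, adjusted p = 2.70e-06). For Slc35d3 the difference of effects was 0.41 (95% interval -0.06 to 0.88, adjusted p = 0.485), so a larger log2 rise in D2 than in D1 neurons was not shown for that gene. The other 4 members had adjusted p-values of 0.431 to 0.994. These contrasts compare fold changes from unequal starting levels. D2 controls stood at 8.34% of the D1 control level for Isl1 and at 16.4% for Zfp521. The same added signal would therefore give a smaller log2 rise in D1 arrays. Whether the added signal itself differed was not tested.

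Within each drug, Isl1 and Zfp521 were higher in D2 mutants. After saline the differences were 0.75 for Isl1 (adjusted p = 0.0160) and 0.79 for Zfp521 (adjusted p = 8.16e-07), which made 2 of 7 called against 4.08% of genes, and Slc35d3 had 0.38 (adjusted p = 0.488). After cocaine they were 1.22 for Isl1 (adjusted p = 6.54e-06), 1.29 for Zfp521 (adjusted p = 3.95e-12) and 0.73 for Slc35d3 (adjusted p = 0.0244), which made 3 of 7 against 7.91% of genes. The differences are larger after cocaine, but no gene passed the test of genotype by drug in D2 neurons (limma, 0 of 12017 genes called, and 583 at an unadjusted p under 0.05). In that test Zfp521 had 0.49 (unadjusted p = 0.000271, adjusted p = 0.628), Isl1 0.47 (adjusted p = 0.952) and Rasgrf2 -0.64 (unadjusted p = 0.00843, adjusted p = 0.952). The saline call of Isl1 was lost without D2 mutant saline replicate 2 (adjusted p = 0.110) or D2 control saline replicate 2 (0.112) or 3 (0.0785), with differences of 0.63 to 0.70, and with the glial marker level as a covariate (0.69, adjusted p = 0.0550). The cocaine call of Slc35d3 was lost without D2 mutant cocaine replicate 1 (adjusted p = 0.0575) or 2 (0.102) or D2 control cocaine replicate 1 (0.0766) or 2 (0.0504), with differences of 0.62 to 0.72. It was also lost with the Slc18a3 level as a covariate (0.66, adjusted p = 0.0731) and with the glial marker level (0.47, adjusted p = 0.628).

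Cocaine against saline within a genotype moved 1 member. In D2 controls Zfp521 was lower after cocaine, at 6.20 to 6.45 log2 against 6.62 to 6.82 after saline. These few arrays did not overlap, a separation that was not counted over all genes. The difference was -0.42 (SE 0.08, adjusted p = 0.0352). That 1 of 7 stands against 0.133% of all genes, or 16 genes. In D2 mutants the Zfp521 arrays overlapped between drugs (0.07, adjusted p = 0.995). Rasgrf2 in D2 controls read 8.41, 8.33, 8.38 and 7.9999 after cocaine, against 7.68, 7.98 and 7.43 after saline. The cocaine arrays were all higher there, but the nearest, at 7.9999 and 7.98, almost touched, and this separation was not counted over all genes either. The difference of 0.58 (SE 0.16) did not pass over all genes (limma, unadjusted p = 0.00111, adjusted p = 0.155).

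Isl1 and Slc35d3 each had a cocaine difference of -0.36 in D2 controls (adjusted p = 0.525 and 0.657). In D2 mutants limma called 0 of 7 members and 0 of all genes for cocaine (588 genes at an unadjusted p under 0.05). It called 0 of 7 members in D1 mutants, against 0.0915% of genes, and 0 of 7 in D1 controls, against 0.0666%. The Zfp521 call in D2 controls depended on single arrays. It was lost without replicate 1 or 3 of the saline D2 controls (adjusted p = 0.184 and 0.298), without replicate 1 or 3 of the cocaine D2 controls (0.155 and 0.133), and narrowly, at 0.0505 to 0.0544, without any of 5 arrays of other groups. Those were D2 mutant saline replicate 2, D1 mutant saline replicate 2, D1 mutant cocaine replicate 2 and either saline D1 control. With the glial marker level as a covariate it was -0.40 (adjusted p = 0.196), and the oligodendrocyte level in D2 controls was 7.22 to 8.06 after cocaine against 8.09 to 8.17 after saline.

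**Figure D4:**
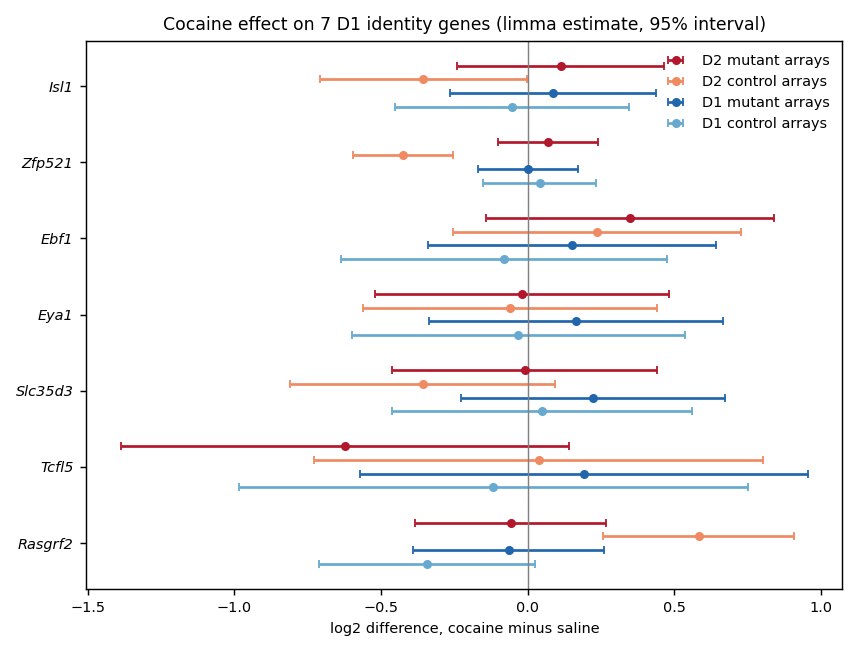
Log2 difference of cocaine minus saline (horizontal axis) for the 7 genes (vertical axis) within D2 mutants, D2 controls, D1 mutants and D1 controls, as limma estimates with 95% intervals. Zfp521 in D2 controls lies at -0.42 and Rasgrf2 in D2 controls at 0.58, and most other intervals include 0.

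Put in order of level over the 8 groups, each gene had the 4 D1 groups above the 4 D2 groups. For Isl1 the D1 group means ran from 10.58 to 10.67 log2 and did not differ beyond their spread. Below them came D2 mutants after cocaine (8.09, SD 0.22, n = 4) and after saline (7.98, SD 0.20, n = 3), which overlapped each other, then D2 controls, lower after cocaine (6.88, SD 0.24, n = 4) than after saline (7.23, SD 0.31, n = 3), which also overlapped. Zfp521 had the same order with clearer steps. Its D1 mutants stood at 9.40 after either drug and D1 controls at 9.17 after cocaine and 9.12 after saline. Its D2 mutants followed at 7.61 after cocaine and 7.54 after saline, and its D2 controls at 6.32 after cocaine and 6.75 after saline, without overlap between the last groups. For Slc35d3, Ebf1, Eya1 and Tcfl5 each group overlapped its neighbour in the order within the D2 arrays, as it did for Rasgrf2. Rasgrf2 was lowest among D1 groups in controls after cocaine (10.54, SD 0.07, n = 4), below the range of every other D1 group. How many genes separate in that way was not counted.

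Within the 14 D2 arrays Isl1 and Zfp521 varied together (Pearson r = 0.916), and Slc35d3 followed them with 0.833 and 0.801. These pairs share the split between genotypes. The genes closest to Isl1 there were Selenoh (0.953), Apod, a lipid carrier (0.945), and Nkain1 (0.943). Closest to Zfp521 were the kinesin Kif22 (0.973), the B cell scaffold Bank1 (0.969) and Nat1 (0.968), and closest to Slc35d3 were the receptor Gpr37 (0.917), Drd1 (0.916) and Armh4 (0.908). All 9 of these genes rose in D2 mutants, against 8.41% of all genes, with differences of 0.27 for Nkain1 to 3.50 for Bank1. They were picked by correlation with members that are split by genotype in these arrays, so nothing is read from that count. Between the neuron types in controls (D2 minus D1), Drd1 had -2.60 and Armh4 -1.10, while the other 7 lay between -0.50 for Bank1 and 0.32 for Gpr37. Rasgrf2, Eya1 and Tcfl5 had their highest correlations with genes that did not pass between genotypes.

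Of 8 other D1 markers listed, 7 were tested in D2 mutants against D2 controls, and 2 rose and 1 fell, against 8.41% of all genes that rose. Drd1 rose (0.54, SE 0.11, adjusted p = 0.00113) and so did the forkhead factor Foxp2 (0.33, adjusted p = 0.00698), while the semaphorin receptor Plxnd1 fell (-1.17, SE 0.17, adjusted p = 1.73e-05). Plxnd1 is also the 1 gene of the 7 that did not pass as lower in D2 controls, with 8.23 to 9.58 log2, than in D1 controls, with 8.74 to 9.66 (adjusted p = 0.361). Drd1 read 10.29 to 10.65 log2 in D2 mutants against 9.71 to 10.50 in D2 controls, and only D2 control saline replicate 1, at 10.50, lay within the mutants' range. The peptide precursors Pdyn (-0.01, adjusted p = 0.963) and Tac1 (0.19, adjusted p = 0.185), Sfxn1 and Gnb4 did not pass. The list's median was -0.01, against 0.02 over all genes. In D1 mutants 0 of these 7 passed in limma, against 4.22% of all genes.

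On the other side, 5 of 8 listed D2 markers had a probe set here. Drd2 fell in D2 mutants (-0.49, SE 0.11, adjusted p = 0.00315), with 12.28 to 12.96 log2 in D2 mutants against 12.94 to 13.60 in D2 controls, and Penk, Gpr6, Grik3 and Plxdc1 did not pass. Of 11 factors shared by both projection neuron types, the zinc finger factor Zfp503 fell (-0.45, adjusted p = 0.00287) and 10 did not pass. Over all genes 3.82% fell and 12.2% passed in either direction. None of the D1 or D2 markers or shared factors named here passed the test for a different effect in the 2 neuron types.

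Relatives and partners of the members are read against the 12.2% of all genes that passed in this contrast. Of 10 tested LIM homeodomain factors and LIM cofactors, Lhx8 rose in D2 mutants (1.17, SE 0.15, adjusted p = 5.79e-06) and 9 did not pass, among them the LIM domain binding proteins Ldb1 (-0.27, adjusted p = 0.0606) and Ldb2 (0.21, adjusted p = 0.247). The other EBF genes and the Zfp521 homologue Zfp423 all lay under the floor and were not tested. Of 6 tested genes of the sine oculis, EYA and DACH network, the corepressor Dach2 rose in mutants of both types. It read 10.22 to 10.70 log2 in D2 mutants against 4.03 to 5.09 in D2 controls, and 10.56 to 11.01 in D1 mutants against 4.47 to 4.97 in D1 controls, where every control array was under the floor and the size of the rise has only a lower bound. Dach1 rose by 0.51 in D2 mutants (adjusted p = 0.0405), and 4 did not pass. Of 6 tested nucleotide sugar transporters and Ras exchange factors, Rasgrf1 rose (0.26, adjusted p = 0.0424) while its relative Rasgrf2 did not pass.

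Markers of other cells moved with the same contrast, in which 8.41% of all genes rose. Among cholinergic interneuron genes, Lhx8 rose, the vesicular transporter Slc18a3 had 0.37 (adjusted p = 0.155), and 4 of 6, including the enzyme Chat at no more than 4.81 log2, lay under the floor in all arrays. The mean level of the 6 was 5.43 to 5.73 log2 in D2 mutants and 5.07 to 5.51 in D2 controls. It was 4.43 to 4.71 in D1 mutants and 4.61 to 4.68 in D1 controls. Cholinergic interneurons express Isl1 as well as Drd2. With the Slc18a3 level as a covariate, chosen after the data were seen, Isl1 and Zfp521 stayed called and Slc35d3 did not (0.51, adjusted p = 0.0554). Slc18a3 was under the floor in 13 of 13 D1 arrays and 6 of 14 D2 arrays, so much of this covariate is background.

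Oligodendrocyte markers rose for 4 of 5 in D2 mutants (Ugt8a 0.80, Mobp 0.60, Mbp 0.54, Cnp 0.31), against 8.41% of all genes. Their mean level was 8.25 to 8.61 log2 in D2 mutants against 7.22 to 8.17 in D2 controls, without overlap. Of 5 astrocyte markers the gap junction gene Gja1 rose (0.62, adjusted p = 0.0186), with mean levels of 6.92 to 7.23 in D2 mutants against 6.43 to 6.998 in D2 controls. Of 3 tested markers of oligodendrocyte precursors, their defining receptor Pdgfra rose (0.64, adjusted p = 0.000109) and 2 did not pass. In D1 mutants 0 oligodendrocyte, astrocyte or cholinergic markers passed in limma, against 4.22% of all genes.

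In D2 mutants single genes also rose among the GABAergic interneuron (Th, 1.46, 1 of 6 tested) and cortical (Nrn1, 1.44, 1 of 4) lists. The same held for the endothelial and mural (Rgs5, 0.87, 1 of 3) and choroid plexus (Kl, 2.23, 1 of 2) lists. The other tested genes of these lists did not pass, nor did the tested microglial gene. The list medians were 0.13, -0.13, 0.03 and 1.496 in that order, against 0.02 over all genes. Whether any of these lists rose as a whole was not tested. Th and Kl rose in D1 mutants as well. Th read 7.12 to 7.80 log2 in D1 mutants against 5.85 to 7.08 in D1 controls, and Kl read 5.97 to 6.57 in D1 mutants against 4.51 to 5.07 in D1 controls. With the mean of the astrocyte and oligodendrocyte markers as a covariate, chosen after the data were seen, Isl1 and Zfp521 stayed called in D2 mutants against D2 controls. Slc35d3 did not (0.36, adjusted p = 0.436), nor did the difference of the Isl1 effect between neuron types (0.91, adjusted p = 0.05002). The oligodendrocyte mean did not overlap between D2 mutants and D2 controls, so this covariate cannot be fully separated from genotype. The part of other cells in the member values was not tested.

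**Figure D5:**
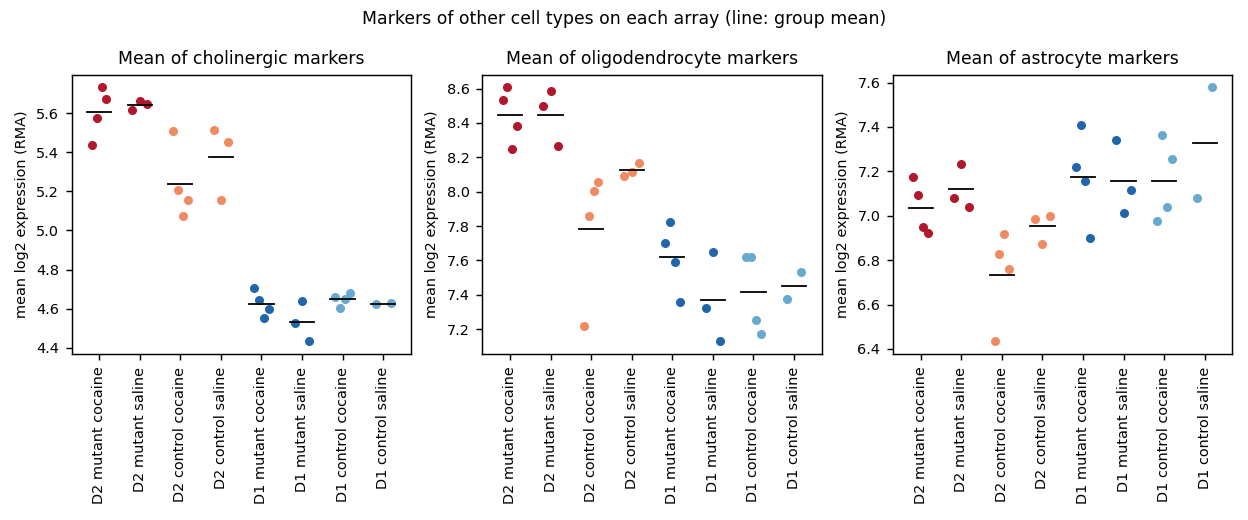
Mean log2 expression (vertical axis) of the cholinergic, oligodendrocyte and astrocyte marker lists on each array in the 8 groups (horizontal axis), with a line at each group mean. The oligodendrocyte mean lies at 8.25 to 8.61 in D2 mutants, above the 7.22 to 8.17 of D2 controls, and the cholinergic mean is lower in all D1 arrays.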

How the data were processed

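Messenger RNA from affinity-purified ribosomes was hybridised to 27 Affymetrix Mouse Genome arrays. Per the submitters' processing notes, the authors' deposited log2 values of 45101 probe sets come from robust multi-array averaging (RMA) in Expression Console 1.1. The design text also mentions global scaling at the scanner. Array medians ran from 5.70 to 5.82.

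The 2016 annotation gave a single symbol to 34945 probe sets, several to 932 and none to 9160 (64 others were controls). The brightest probe set stood for each gene, and a gene was tested when it exceeded 6 in at least 3 arrays. All arrays were fitted in limma 3.58.1 (R 4.3.3) with a mean per group (8 groups), drugs weighted equally in genotype contrasts, and Benjamini-Hochberg adjustment over 12017 genes. Calls have an adjusted p under 0.05. The fit was tested on simulated data.

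The members and gene lists were chosen with earlier results of these data known. Named genes are the members, the 3 genes most correlated with each, and list genes that passed or define the list. The labels' treatment protocol gives 2 to 4 mice per group without saying that an array is 1 mouse, and p-values measure the spread between arrays. Replicate numbers did not pair arrays: correlations of same-numbered deviations were -0.37 to 0.23 over 13 pairs, with 2 over 0.1. Array number limits the precision. Alternatives covered probe set choice, filter, scaling, moderation, a replicate block, covariates, a fold limit and leaving out arrays.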

Additional observations from a re-analysis of the deposited data

Results flagged for a closer look

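Among 28 sets of 4 or more arrays of 1 group and 1 gene, 3 had an array far from the others, and chance flags about 1 in 20 such sets. Isl1 in D1 controls after cocaine had replicate 3 at 10.04 log2, with the next array at 10.76, a gap of 0.869 of the group's range. Slc35d3 in D2 controls after cocaine had replicate 3 at 7.59, with the next at 7.36, a gap of 0.846 of the range. That array also has a Ttr level of 11.40, a choroid plexus transcript, which was above 9.5 in 3 arrays. Rasgrf2 in D1 controls after cocaine had replicate 1 at 10.43, with the next at 10.56, a gap of 0.859 of a narrow range.

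The log2 effect of G9a loss differed between D2 and D1 neurons, by an interaction contrast in limma, for Isl1 (0.994, adjusted p = 0.00287) and Zfp521 (0.789, adjusted p = 2.70e-06). Starting levels were far higher in D1 arrays, and the added signal was not compared. In D2 arrays Isl1 and Zfp521 were higher in 7 of 7 mutants than in any control, as were 3.58% of all tested genes.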

How the results depend on the processing

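The 3 members called in D2 mutants against D2 controls were 2 or 3 when any 1 array was left out and 4 with the highest-variance probe sets, which added Ebf1 (0.67, adjusted p = 0.00439). The second brightest probe sets, a fold of at least 1.5 and the covariates removed single genes without moving the count by over 1.5 times. Isl1 was called in all alternatives (0.52 to 1.07), and Zfp521 in all but its second probe set (0.13). The count in D1 mutants (1 with all arrays) was 0 with the second brightest probe sets and with a fold of at least 1.5, and 0 to 1 over single arrays. The count of differing effects (2) was 1 with the second brightest probe sets and with the glial covariate. In saline arrays the 2 calls were 0 with the second brightest probe sets, 1 with the glial covariate and 1 to 2 over single arrays. The 1 cocaine call in D2 controls was 0 with the highest-variance probe sets, the second brightest ones, median centring, the arrays of 1 subtype, the fold limit, the glial covariate or without 3 arrays of high Ttr, and 0 to 1 over single arrays. It turned round for Zfp521 with its second probe set (0.0548, adjusted p = 0.944). The causes were not tested. The replicate number as a block changed no call of a member: it left 3 called in D2 mutants, with Isl1 at 0.98 (adjusted p = 3.50e-06). Median centring and cyclic loess kept every D2 genotype call. Signals near background limit Ebf1 and Tcfl5 in D2 arrays.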
